A study of Mus musculus with 28 samples.

Results

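The 9 genes described here encode the synaptonemal complex and the meiotic HORMA domain proteins: *Sycp1*, *Sycp2*, *Sycp3*, *Syce1*, *Syce2*, *Syce3*, *Tex12*, *Hormad1* and *Hormad2*. They were listed by name for their known roles, with earlier results of these data in view, and are 9 of the 37122 genes to which the deposited transcripts could be assigned. A gene's value is the sum of the RPKM (reads scaled to transcript length and to the mapped reads of the library) of its transcripts, and log2 differences are on the log2(RPKM + 0.1) scale after quantile normalization, with a call at a limma adjusted p under 0.05. The study sequenced polyadenylated RNA of wildtype (WT) and *Csmd1* knockout (KO) mice, from whole gonads and from germ cells sorted by flow cytometry of Hoechst-stained testis cells. *Csmd1* encodes a complement-regulating membrane protein, and the comparison of genotypes asks what its loss does to the gonad.

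Both genotypes gave spermatogonia (2 WT and 2 KO libraries), primary spermatocytes (2 WT, 4 KO), secondary spermatocytes (2 WT, 3 KO), spermatids (3 WT, 2 KO) and whole testes (2 WT, 5 KO). The 20 sorted libraries came from 8 mice, untreated as far as the labels say, and 1 WT ovary was used as a description only. The labels name the strain C57BL/6, whereas the methods describe the original colony, from which tissues of littermates were compared, as a mixed 129SvEvBrd:C57BL/6 background, so how far background differs between these mice is unknown. The KO is constitutive and replaces the first exon of *Csmd1* and part of the following intron with a reporter cassette. The labels give no ages. The methods describe the males used for sorting as sexually mature, and the study sequenced whole testes of both immature and mature mice. Which whole testis had which age is not in the labels, so age and the differences between those mice cannot be told apart here. Sorted stages are gates on DNA content and Hoechst colour, not cells chosen by a marker protein. P-values measure the spread between libraries, some of which come from 1 mouse, and the stage comparisons share libraries with each other.

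In meiotic prophase each chromosome pair is held together by the synaptonemal complex, a zipper-like protein structure. SYCP2 and SYCP3 build the chromosome axes, HORMAD1 and HORMAD2 bind the axes where the partners are not yet joined, and SYCP1 forms the filaments that cross the space between them. SYCE1, SYCE2, SYCE3 and TEX12 form the central element, where the filaments from both sides meet. In the testis these genes are known as markers of spermatocytes, and male mice that lack most of them are sterile with arrested meiosis.

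In the GENCODE M21 annotation (GRCm38) the axis genes lie at chr2:178345293-178407685 (minus strand, *Sycp2*), chr10:88459569-88473236 (plus, *Sycp3*), chr3:95559677-95587671 (plus, *Hormad1*) and chr11:4345814-4441105 (minus, *Hormad2*), and *Sycp1* at chr3:102818499-102936100 (minus). The central element genes lie at chr7:140777229-140787852 (minus, *Syce1*), chr8:84872111-84888221 (plus, *Syce2*), chr15:89390174-89410503 (minus, *Syce3*) and chr9:50556819-50561325 (minus, *Tex12*).

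Some libraries stood apart. *Prm1*, which encodes a protamine made in late spermatids, was between 0.0940 and 2.14 RPKM in every sorted library of WT mouse 648 and KO mouse 286, and 930 to 2579 RPKM in the spermatid libraries of the other 3 mice. The methods describe the males used for sorting as sexually mature, and the labels give no ages. The study also reports loss of germ cells in a subset of *Csmd1* KO testes. The part of age, or of such loss in KO mouse 286, in these values was not tested. *Prm1* reached 1402 RPKM in the spermatogonia library of KO mouse 544, where the 6 spermatid markers summed to 10600 RPKM, against 3.76 to 459 RPKM in the other 3 spermatogonia libraries. The same library held 3710 RPKM of 6 markers of pachytene and later spermatocytes, against 111 to 566 RPKM, and 108 RPKM of 6 spermatogonia markers, against 258 to 289 RPKM. The spermatogonia library of WT mouse 648 carried the most stromal marker RNA of the 4, 439 RPKM over 6 peritubular and stromal markers, against 16.7 to 121 RPKM in the other 3. It was also the highest of the 4 in Leydig markers (224 RPKM against 8.4 to 21.6) and in macrophage markers (32.6 RPKM). In spermatogonia 6 markers of early meiotic prophase summed to 63.8 RPKM in mouse 178 and 48.1 RPKM in mouse 286. They gave 12.5 and 18.2 RPKM in mice 648 and 544, and 17.8 to 75.5 RPKM in primary spermatocytes. Mice 178 and 286 also held the higher spermatogonia values of *Sycp1*, *Sycp2*, *Sycp3*, *Tex12*, *Hormad1* and *Hormad2*. The part of early meiotic cells in those values was not tested. The column of KO mouse 613 was quantified in another way, with reads split among transcripts, so its sums over several transcripts are low (*Sycp3* had 114 RPKM on 1 transcript and 0 and 3.25 RPKM on the other two). Without that mouse limma still called 2 members between spermatogonia and primary spermatocytes and 4 between spermatogonia and spermatids, as with it. The full-length *Csmd1* transcript was at 0 to 2.004 RPKM in KO and 0.00800 to 0.517 RPKM in WT testis libraries. Most of that transcript lies outside the deleted exon, so this value does not check the labels. For KO testes the study reports reduced reads over most *Csmd1* exons and raised reads over the last ones. Results are also given without the mice or the library concerned, and beyond that the part of these differences in them was not tested.

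Promoter sequences of the 9 genes were taken from RefSeq (GRCm38.p6), as windows from 250 bases before to 50 bases after each annotated start. All 9 genes matched, with 12 windows in all. The stretches below show the 120 bases before the start, because the hexamer CACGTG recurs in them. CACGTG, an E-box bound by MAX and its partners, is in capitals, and each run reads 5′ to 3′ on the strand of the gene. They lie at chr3:102936101-102936220 (minus strand, *Sycp1*), chr10:88459467-88459586 (plus, *Sycp3*), chr9:50561269-50561388 (minus, *Tex12*), chr3:95559557-95559676 (plus, *Hormad1*) and chr7:140787855-140787974 (minus, *Syce1*, shown as a member without the hexamer).
Sycp1: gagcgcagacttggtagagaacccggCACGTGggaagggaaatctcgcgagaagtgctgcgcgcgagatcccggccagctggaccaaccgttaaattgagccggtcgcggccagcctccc
Sycp3: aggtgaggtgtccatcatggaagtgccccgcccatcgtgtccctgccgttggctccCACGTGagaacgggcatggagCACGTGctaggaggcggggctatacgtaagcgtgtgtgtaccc
Tex12: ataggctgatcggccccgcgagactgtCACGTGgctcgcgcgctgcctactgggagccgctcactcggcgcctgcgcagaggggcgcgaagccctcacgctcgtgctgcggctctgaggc
Hormad1: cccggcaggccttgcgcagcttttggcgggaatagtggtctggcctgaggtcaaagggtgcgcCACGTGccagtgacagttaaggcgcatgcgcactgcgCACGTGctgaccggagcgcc
Syce1: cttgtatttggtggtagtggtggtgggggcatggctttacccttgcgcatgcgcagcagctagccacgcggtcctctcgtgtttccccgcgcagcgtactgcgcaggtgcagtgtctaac

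CACGTG reads the same on both strands. It was in the windows of 5 of the 9 genes (*Sycp1*, *Sycp3*, *Syce2*, *Tex12* and *Hormad1*), where 8.09% of the 27025 genes with a window hold it. Counted by window it was in 6 of 12, against 7.15% of 32851 windows. The hexamer is shown because it recurs in these genes, so the shares describe them and are not a test. *Sycp3* and *Hormad1* each hold 2 copies, at 64 and 43 bases before the start of *Sycp3* and at 57 and 20 bases before that of *Hormad1*. *Sycp2* and *Hormad2* hold no copy, though their profiles over the sorted libraries were like the members' mean (Pearson r = 0.89 and 0.87). *Syce2*, with an r of -0.11, holds 1 copy. The mean is over all 9 genes, so each gene is part of the profile it is compared with. TCCCGC, read on either strand as TCCCGC or GCGGGA and found in E2F sites, was in the windows of the same 5 genes, against 22.0% of all genes. TAACGG, read as TAACGG or CCGTTA and found in MYB sites, was in the windows of 2 genes, *Sycp1* and *Syce3*, against 3.15%. A match of letters is a description of the window and not a bound site.

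Among the axis genes, *Sycp3* was read at 1015 and 444 RPKM in the spermatogonia of WT mice 178 and 648, and at 697 and 196 RPKM in those of KO mice 286 and 544. Primary spermatocytes ranged from 117 to 1585 RPKM (median 430, n = 6) and secondary spermatocytes from 89.4 to 888 RPKM (median 203, n = 5). Spermatids held 79.1, 60.1 and 653 RPKM in WT mice 178, 351 and 648, and 352 and 28.6 RPKM in KO mice 286 and 544. The spermatids of mice 648 and 286, those with *Prm1* near 0, overlapped the spermatogonia, and the other 3 lay below all 4 spermatogonia libraries. *Sycp3* fell by 2.40 on the log2 scale from spermatogonia to spermatids (SE 0.80, limma adjusted p = 0.0255), and the difference was negative in 4 of 4 mice with both stages. In mouse 648 it was -0.35 after quantile normalization, whereas RPKM itself rose from 444 to 653. The sign in that mouse thus depends on the normalization. Without mice 178, 351 and 544, each left out in turn, the adjusted p was 0.149, 0.0560 and 0.0543, and it was 0.0764 with RPKM as deposited. Of its exon bases, 660 are shared with *Chpt1* on the opposite strand, and whether reads were counted by strand is not given in the sources used here.

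*Hormad1*, whose protein is removed from the axes as they synapse, was read at 673 and 107 RPKM in WT spermatogonia and 338 and 59.4 RPKM in KO spermatogonia. In spermatids it was at 27.4, 17.7 and 232 RPKM in WT mice 178, 351 and 648 and at 153 and 7.17 RPKM in KO mice 286 and 544. The spermatid libraries of mice 648 and 286 again lay within the range of the spermatogonia. *Hormad1* fell by 2.46 between these stages (SE 0.95, limma adjusted p = 0.0478). Within mice the difference was negative in 3 of 4, and 0.47 in mouse 648. That call sat at the threshold and was lost without any of mice 178, 286, 351, 544, 550 or 614 (adjusted p 0.0574 to 0.317), in WT libraries alone (adjusted p = 0.0612), and with another pseudocount, RPKM as deposited or no filter on low values (adjusted p 0.0517 to 0.0840).

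*Sycp2*, the partner of SYCP3 in the axis, was at 309 and 60.6 RPKM in WT and 371 and 84.4 RPKM in KO spermatogonia, and between 24.4 and 362 RPKM in the 5 spermatid libraries. Its difference from spermatogonia to spermatids was -1.08 (SE 0.78, limma adjusted p = 0.285), and the groups overlapped widely. *Hormad2*, the paralog of HORMAD1 that marks unsynapsed axes, was the weakest of the axis genes at 10.3 to 83.3 RPKM in spermatogonia and 4.71 to 22.4 RPKM in spermatids. Its difference was -1.46 (SE 0.70, limma adjusted p = 0.107). It passed the threshold without the spermatogonia library of mouse 544 (-2.07, adjusted p = 0.0317) and without mouse 648 (-2.40, adjusted p = 0.0350).

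*Sycp1*, the transverse filament gene, was at 210 and 104 RPKM in WT and 175 and 22.8 RPKM in KO spermatogonia. Primary spermatocytes ranged from 24.6 to 119 RPKM (median 47.3, n = 6), secondary spermatocytes from 15.1 to 36.8 RPKM (median 24.6, n = 5) and spermatids from 11.4 to 73.7 RPKM (median 36.5, n = 5). The spermatogonia library of mouse 544 lay far under the other 3. From spermatogonia to spermatids the difference was -1.82 (SE 0.77, limma adjusted p = 0.0701), and -1.74 with the mouse as a replicate block (adjusted p = 0.0182). Without the spermatogonia library of mouse 544 it was -2.83 (adjusted p = 0.00424), and *Sycp1* then also passed between spermatogonia and primary spermatocytes (-2.03, adjusted p = 0.0367). The sign was negative in 4 of 4 mice between spermatogonia and spermatids.

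**Figure D1:**
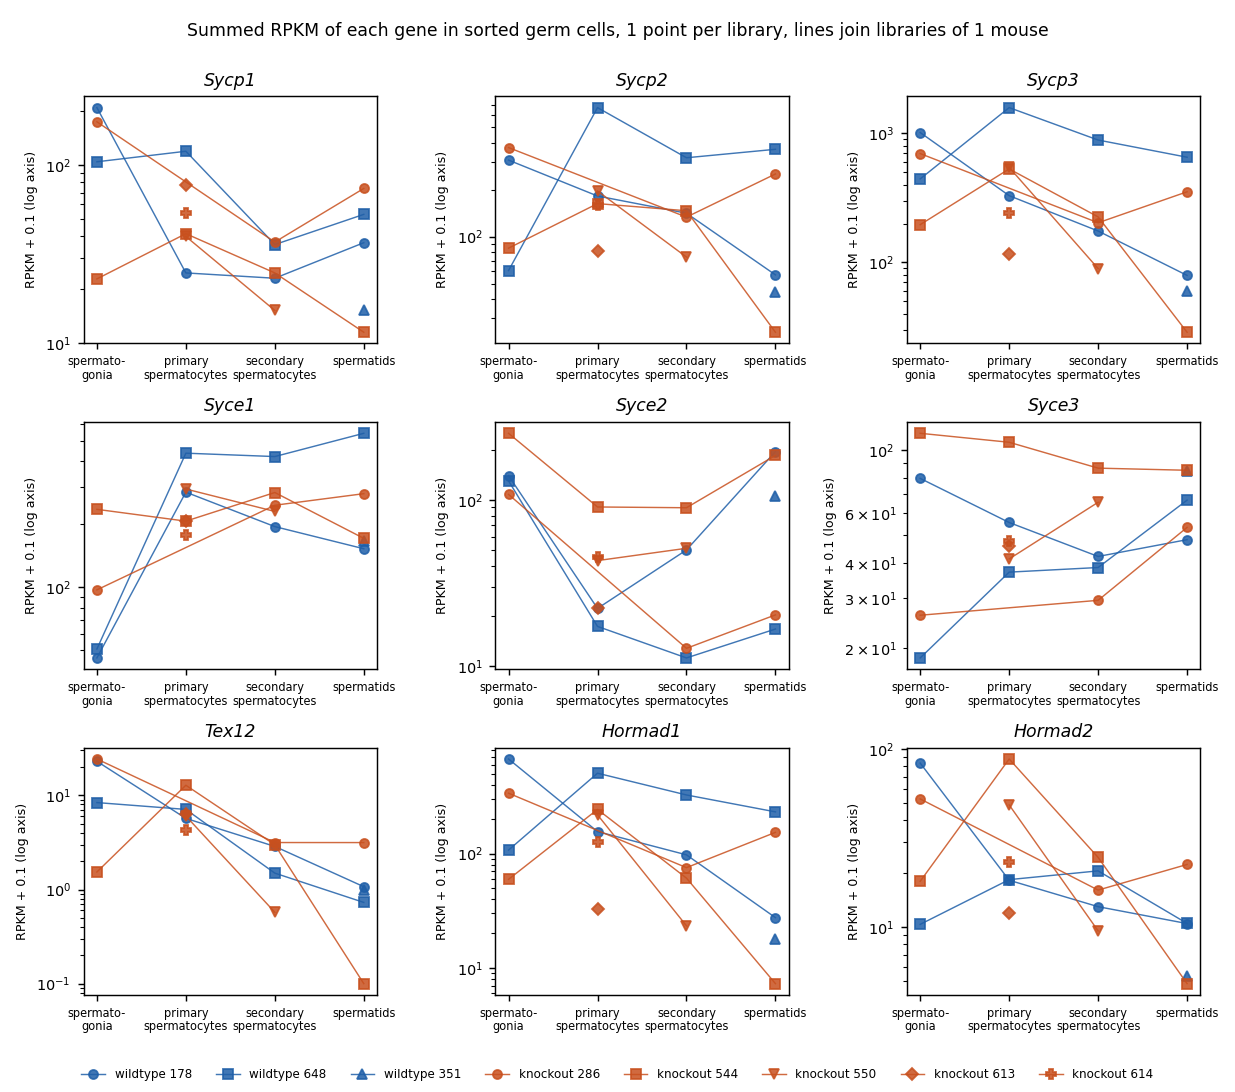
Summed RPKM (plus 0.1, log axis) of each gene in the 4 sorted stages, 1 point per library, with lines joining the libraries of 1 mouse (blue, wildtype; orange, knockout). *Syce1* starts low in 3 of 4 spermatogonia libraries and *Syce2* starts high. *Sycp3*, *Hormad1* and *Tex12* end lower than they began, except that *Sycp3* and *Hormad1* end higher in mouse 648. Among spermatids, mice 648 and 286 lie above the others for *Sycp3* and *Hormad1*.

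The central element genes did not share 1 profile. *Syce1*, which links SYCP1 filaments in the central element, was at 45.9 and 50.6 RPKM in WT spermatogonia and at 97.1 and 236 RPKM in those of KO mice 286 and 544. All 6 primary spermatocyte libraries were at 178 to 437 RPKM, all 5 secondary spermatocyte libraries at 195 to 421 RPKM and all 5 spermatid libraries at 153 to 544 RPKM. Only the spermatogonia library of mouse 544 overlapped the later stages. *Syce1* rose by 1.56 from spermatogonia to primary spermatocytes (SE 0.37, limma adjusted p = 0.00664) and was 1.21 higher in spermatids than in spermatogonia (SE 0.38, limma adjusted p = 0.0182). Within mice these differences were positive in 2 of 3 and in 3 of 4, and in mouse 544 they were -0.06 and -0.08. Without mouse 648 the adjusted p was 0.0642 and 0.0825, and without mouse 286 the difference to spermatids was 0.96 (adjusted p = 0.178).

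*Syce2*, which forms fibres with TEX12, went the other way. It was at 140 and 130 RPKM in WT and 108 and 251 RPKM in KO spermatogonia. Primary spermatocytes held 22.1 and 17.2 RPKM in WT mice 178 and 648, and 90.4, 42.9, 22.1 and 44.9 RPKM in KO mice 544, 550, 613 and 614. All 6 were under all 4 spermatogonia libraries, and the difference was negative in 3 of 3 mice with both stages. *Syce2* fell by 2.50 (SE 0.74, limma adjusted p = 0.0205). The adjusted p was 0.115 without mouse 178, 0.0843 without mouse 648 and 0.0519 in WT libraries alone. In spermatids it was at 195, 105 and 185 RPKM in mice 178, 351 and 544 and at 16.6 and 20.2 RPKM in mice 648 and 286, so the libraries with *Prm1* near 0 were also those low in *Syce2*. Spermatids minus secondary spermatocytes gave 1.14 (SE 0.72, limma adjusted p = 0.503), positive in 4 of 4 mice. Spermatids minus spermatogonia gave -1.37 (limma adjusted p = 0.156), and -1.45 with the replicate block, which passed (adjusted p = 0.0392).

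*Tex12* was read at 22.9 and 8.28 RPKM in WT and 24.3 and 1.44 RPKM in KO spermatogonia. Primary spermatocytes held 4.24 to 12.7 RPKM (median 6.05, n = 6), secondary spermatocytes 0.473 to 3.06 RPKM (median 2.77, n = 5) and spermatids 0 to 3.05 RPKM (median 0.884, n = 5). Primary and secondary spermatocytes did not overlap. No read was recorded in the spermatids of mouse 544, where 3 reads would be 0.0718 RPKM. *Tex12* fell by 3.32 from spermatogonia to spermatids (SE 0.98, limma adjusted p = 0.0135), with a negative sign in 4 of 4 mice. The adjusted p was 0.118 without mouse 178 and 0.0556 without mouse 648. From primary to secondary spermatocytes the difference was -2.09 (SE 0.91, limma adjusted p = 0.210), and -2.40 with the mouse as a replicate block, which passed (adjusted p = 0.0336). *Tex12* rested on few reads, with a median of 136 over the libraries.

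*Syce3*, which encodes a small central element protein that recruits the others, was at 79.4 and 18.3 RPKM in WT and 26.0 and 115 RPKM in KO spermatogonia. It stayed between 29.4 and 107 RPKM in all 16 later libraries. No stage difference passed, and spermatids minus spermatogonia gave 0.55 (SE 0.52, limma adjusted p = 0.421).

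Counted together, 2 of the 9 genes passed from spermatogonia to primary spermatocytes (*Syce1* up, *Syce2* down), where 25.3% of the 22706 genes tested passed. From primary to secondary spermatocytes 0 of 9 passed, against 1.32% of all genes, and from secondary spermatocytes to spermatids 0 of 9, against 0.0%. In those comparisons limma called 300 and 0 genes, with 4569 and 3181 at an unadjusted p under 0.05. Between spermatogonia and spermatids 4 of 9 passed (*Syce1* up, and *Sycp3*, *Tex12* and *Hormad1* down), against 40.7% of all genes. The shares are close to the background. The median difference of the 9 genes there was -1.46, where that of all genes was 0.00. In bulk libraries a lower value can mean fewer cells of a type or less RNA per cell, and these cannot be told apart.

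**Figure D2:**
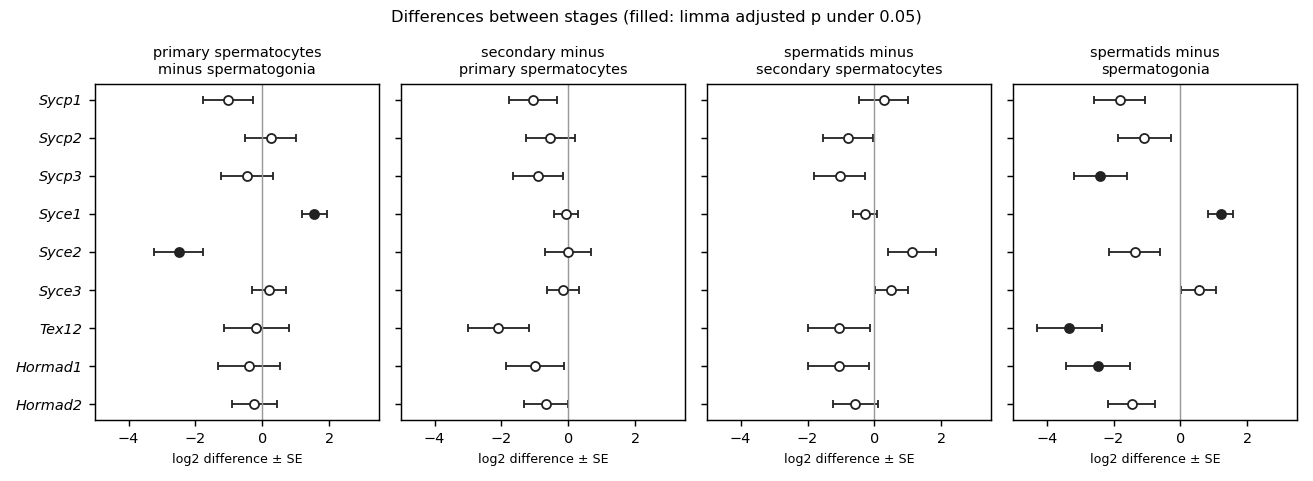
Log2 difference between stages for each gene (point) with its standard error (bar), from limma on quantile-normalized log2(RPKM + 0.1). Filled points passed an adjusted p of 0.05: *Syce1* (1.56) and *Syce2* (-2.50) in the first panel, none in the second and the third, and *Sycp3*, *Syce1*, *Tex12* and *Hormad1* in the last.

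Levels between genes were compared per length on 1 leading transcript each. In primary spermatocytes *Syce1* (268 ± 95.1 RPKM, SD, n = 6) and *Sycp3* (203 ± 172) were the most abundant. *Sycp2* (78.1 ± 75.7), *Hormad1* (60.3 ± 40.6) and *Sycp1* (59.1 ± 34.3) followed, and neighbours in this order differed by less than their spread. The leading transcript of *Sycp2* was at 0.277 RPKM in mouse 613, where the reads were split, and enters that mean. *Syce3* (33.2 ± 15.0), *Syce2* (16.5 ± 9.97), *Hormad2* (9.58 ± 9.28) and *Tex12* (6.94 ± 2.97) were the lowest. In spermatids the order was led by *Syce1* (263 ± 165, n = 5), and *Tex12* (1.11 ± 1.15) was the lowest.

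The profiles over the 20 sorted libraries fell into a group of 6 genes and 3 others. *Sycp3* and *Hormad1* were the most alike pair (Pearson r = 0.97 on the log2 scale), and r among *Sycp1*, *Sycp2*, *Sycp3*, *Tex12*, *Hormad1* and *Hormad2* was 0.55 or higher. *Syce1* and *Syce2* ran against each other (r = -0.77), and *Syce3* reached at most 0.25 with any other member. The points share mice, gates and quantification, so these values are a description of the libraries.

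**Figure D3:**
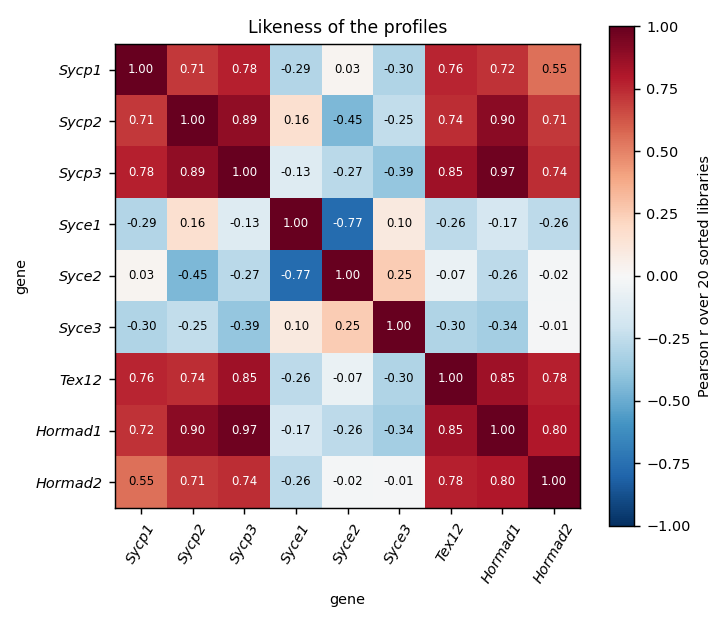
Pearson correlation of the log2 profiles of each pair of genes over the 20 sorted libraries, red for positive and blue for negative. *Sycp3* and *Hormad1* reach 0.97, and *Syce1* with *Syce2* is the most negative square, at -0.77.

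Outside the 9 genes, those whose profile was most like the members' mean profile, among 14640 genes with a mean of at least 1 RPKM, were *Meiob* (r = 0.925), *AI481877* (0.921), *Hfm1* (0.916), *Atp11b* (0.879), *Dop1a* (0.879), *Scai* (0.873), *Pik3c2a* (0.866), *Meioc* (0.864), *Rab2a* (0.863) and *Trdmt1* (0.861). *Meiob* encodes a single-strand DNA-binding protein of meiotic recombination, *AI481877* (also called *Shoc1*) and *Hfm1* encode crossover factors, and *Meioc* a regulator of meiotic entry.

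Other genes of the pathway were read from 6 lists, whose choice was made with earlier results of these data known. None of their members passed in a comparison of genotypes. Of the 10 tested axis and HORMAD partners, 4 fell from spermatogonia to primary spermatocytes and 0 rose. Over all 22706 genes, 25.3% passed in that comparison (2878 higher and 2866 lower), and the counts of the other lists in it stand against the same share. *Smc3*, a cohesin core subunit, fell by 3.06 (SE 0.59, limma adjusted p = 0.00239), the meiotic cohesin gene *Rad21l* fell by 3.03 (SE 0.73, adjusted p = 0.00729) and *Trip13*, which encodes the ATPase that strips HORMADs from axes, fell by 1.53 (SE 0.43, adjusted p = 0.0159). *Rec8*, another meiotic cohesin gene, rose by 2.84 from primary to secondary spermatocytes (SE 0.58, limma adjusted p = 0.0337). Of 11 central element and crossover partners, 7 fell between spermatogonia and spermatids and 0 rose, in a comparison where 40.7% of all genes passed (4457 higher and 4794 lower). *Fkbp6*, a chaperone gene of the complex, fell by 4.24 (SE 0.48, limma adjusted p = 0.000147), and *Ccnb1ip1* and *Tex11*, genes of crossover formation, stood at -2.77 and -3.52. The median of that list was -1.68, beside 0.00 for all genes.

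Of 6 genes of telomere attachment, 2 rose from spermatogonia to primary spermatocytes, *Ccdc155* (KASH5, which ties telomeres to the cytoskeleton) by 2.55 (SE 0.49, limma adjusted p = 0.00235) and *Spdya* by 1.76 (SE 0.55, adjusted p = 0.0276). Of 7 genes of disassembly and exit, 3 rose in that comparison: *Hspa2*, a chaperone gene needed to take the complex apart, by 2.18 (SE 0.47, limma adjusted p = 0.00401), *Ccna1* by 2.25 and *Aurkc* by 2.33. In the list on silencing of unsynapsed chromatin (6 genes), *Brca1* fell by 2.22 (SE 0.41, limma adjusted p = 0.00186) and *Atr* rose by 1.51. Of 10 regulators of the meiotic program, 4 fell and 2 rose, led by *Pcgf6* (2.13), *Stra8* (-4.19, SE 0.92, limma adjusted p = 0.00446), the gene of the factor that starts meiosis, and its partner *Gm4969* (*Meiosin*, -3.39). Between spermatogonia and spermatids, where 40.7% of all genes passed, 7 of these 10 fell, led by *Dazl* (-4.50), *Stra8* (-5.18) and *E2f6* (-2.72). In the same comparison 1 axis partner rose and 3 fell, 1 telomere gene rose (*Ccdc155*, 1.93), 3 silencing genes fell (*Topbp1* -3.11, *Rnf8* -1.86 and *H2afx* -2.66), and of the disassembly genes *Ccna1* (3.06) and *Hspa2* (1.39) rose and *Aurkb* (-1.71) fell.

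Between genotypes, no member passed in any stage. In spermatogonia 0 of 9 passed, against 0.0% of all genes, and the differences (KO minus WT) ran from -1.73 for *Sycp1* (SE 1.14, limma adjusted p = 0.883) to 1.37 for *Syce1* (SE 0.56, adjusted p = 0.883). *Syce1* was at 97.1 and 236 RPKM in KO and 45.9 and 50.6 RPKM in WT spermatogonia. The value of 236 RPKM is that of the mouse 544 library, with its 10600 RPKM of spermatid and 3710 RPKM of spermatocyte markers, and their part in the difference was not tested. Only 2 libraries a genotype carry that difference. It was 1.22 in the pair quantified together (KO 286 and WT 178) and 1.17 without the mouse 544 library. Without the spermatogonia library of mouse 544 *Sycp2* stood at 1.61 and *Hormad2* at 1.01, each from a single KO library.

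In primary spermatocytes 0 of 9 passed (0.0% of all genes), with differences from -0.94 for *Hormad1* (SE 1.21, limma adjusted p = 0.881) to 1.06 for *Syce2* (SE 0.96, adjusted p = 0.821). The KO libraries of this stage include that of mouse 613, whose sums over several transcripts are low, with *Hormad1* at 32.6 RPKM. In secondary spermatocytes (0 of 9, 0.0%) they ran from -1.73 for *Hormad1* (SE 1.28, limma adjusted p = 1.0) to 0.55 for *Syce2*. In spermatids (0 of 9, 0.0%) they ran from -1.02 for *Tex12* (SE 1.32, limma adjusted p = 1.0) to 0.13 for *Hormad2*. limma called 0 genes in each of the 4 stages, with 1214, 1429, 533 and 191 at an unadjusted p under 0.05. Standard errors of 0.48 to 1.45 leave room for differences of over 1 log2 unit in most members.

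The columns fell into 4 sets by which transcripts lack a value, here taken as libraries quantified together. Libraries of KO mice 544 and 550 shared a set with the WT ovary and with no WT germ cell library. The library of KO mouse 613 formed a set of its own. For these mice genotype and set cannot be told apart in the pooled differences. Within such sets 23 of 45 values, none with a test, had the opposite sign to the pooled difference. In spermatids KO mouse 286 against WT mice 178 and 351 gave 2.43 for *Hormad1*, 2.06 for *Sycp3* and -3.02 for *Syce2*, and 7 of 9 members were higher. That KO library had *Prm1* at 2.14 RPKM, against 2579 and 1299 RPKM in the WT libraries. In primary spermatocytes KO mouse 614 against WT mouse 648 gave -2.04 for *Sycp3* and 1.23 for *Syce2*, with *Prm1* at 34.7 and 0.342 RPKM. The effect of genotype did not differ detectably between stages for any member (0 of 9, against 0.0% of all genes), and 507 genes had an unadjusted limma p under 0.05. The lowest unadjusted p of the members was that of *Syce1*, at 0.145 in limma.

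**Figure D4:**
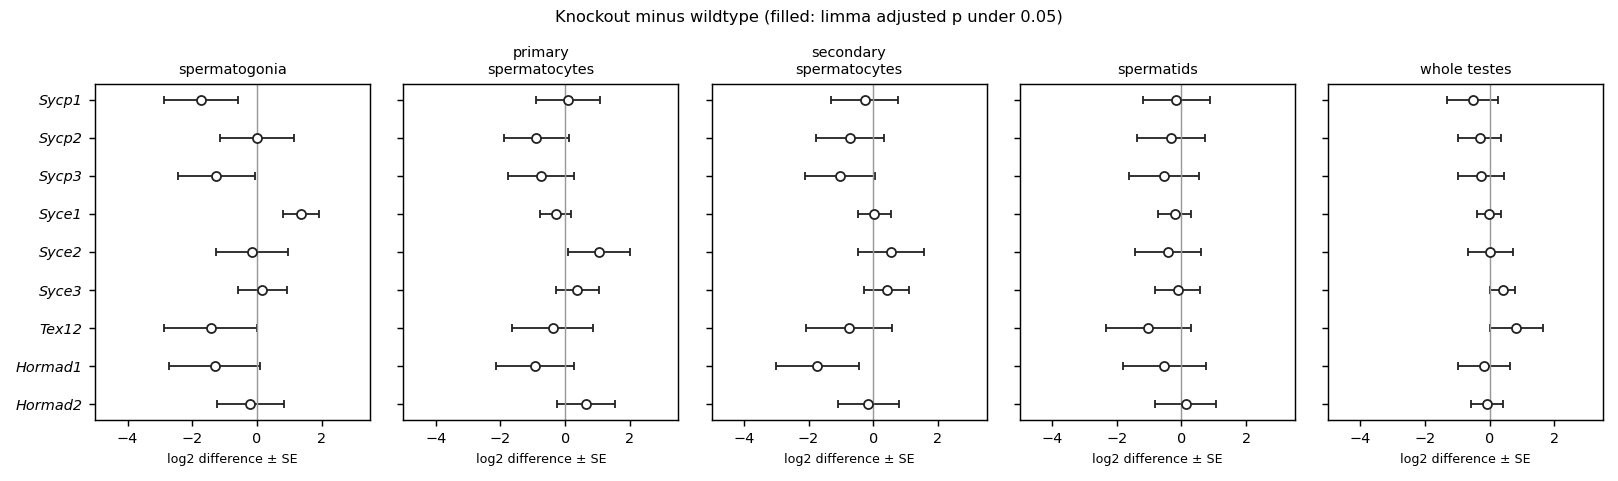
Log2 difference between knockout and wildtype for each gene (point) with its standard error (bar), by sorted stage and in whole testes. No point is filled, since none passed an adjusted p of 0.05, and *Syce1* in spermatogonia (1.37) is the largest above 0.

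In whole testes *Sycp3* was at 119 and 1714 RPKM in WT mice 178 and 648, and at 367, 487, 354, 487 and 1114 RPKM in KO mice 214, 269, 273, 286 and 308. The 2 WT values enclosed all 5 KO values. *Prm1* was at 603 and 0.681 RPKM in these WT testes and at 1152, 0.850, 1922, 1.16 and 0.439 RPKM in the KO testes, in the same order. *Hormad1* stood at 55.5 and 596 RPKM in WT testes and at 127, 242, 147, 219 and 749 RPKM in KO testes, again in that order. In *Sycp1*, *Sycp2*, *Sycp3* and *Hormad1* alike, the testes of mice 178, 214 and 273 held the 3 lowest values, and these 3 had the highest *Prm1*. Age is not in the labels, and neither its part in this nor that of germ cell loss in KO testes was tested. *Syce1* stood at 97.3 and 375 RPKM in WT and 221 to 322 RPKM in KO testes, in another order.

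In whole testes 0 of 9 members passed between genotypes, against 0.0% of the 22758 genes tested, where limma called 0 genes and 776 had an unadjusted p under 0.05. Differences ran from -0.52 for *Sycp1* (SE 0.78, limma adjusted p = 0.998) to 0.83 for *Tex12* (SE 0.82, adjusted p = 0.998). The 5 KO testes against the WT testis of mouse 178, quantified with them, gave higher values for 8 of 9 members, up to 1.96 for *Tex12*, and -0.83 for *Syce2*. That single WT testis was the lowest of the 7 in *Sycp1*, *Sycp2*, *Sycp3*, *Syce1*, *Tex12*, *Hormad1* and *Hormad2*.

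**Figure D5:**
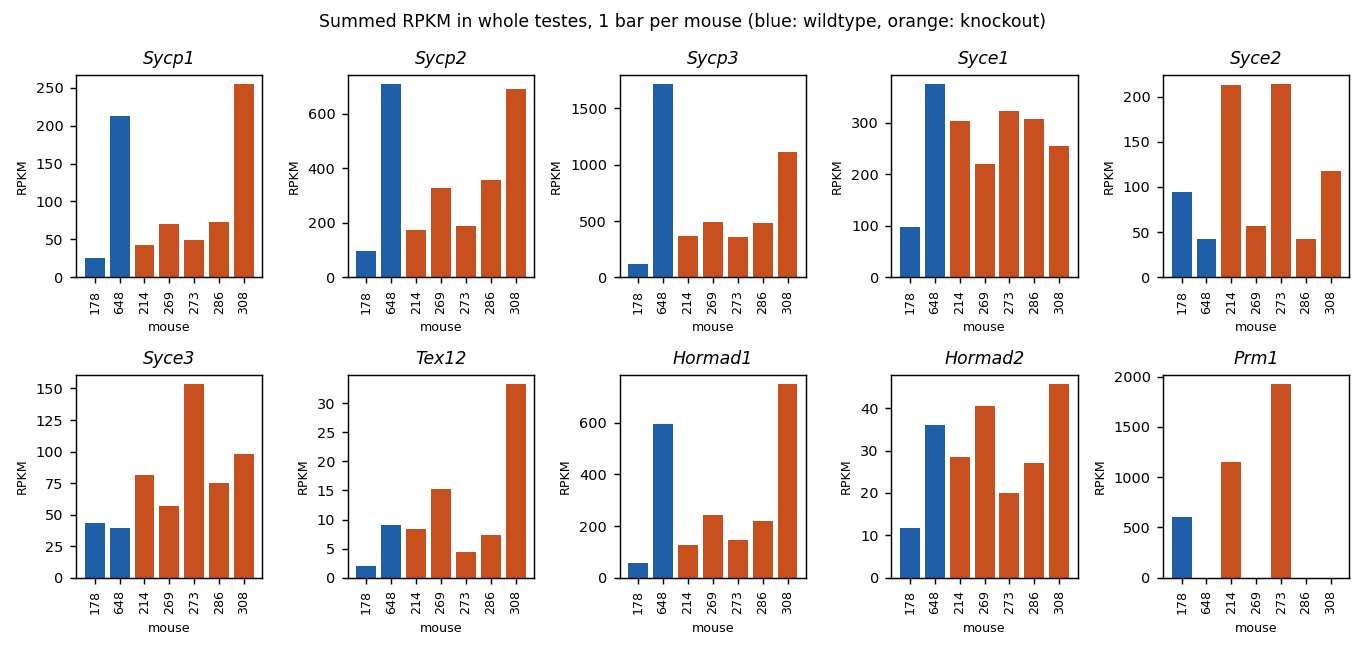
Summed RPKM of each gene and of *Prm1* in the 7 whole testes, 1 bar per mouse (blue, wildtype; orange, knockout). The testes of mice 178, 214 and 273 have the tallest *Prm1* bars and the 3 lowest bars of *Sycp1*, *Sycp2*, *Sycp3* and *Hormad1*.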

How the data were processed

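Polyadenylated RNA of 28 libraries from 13 mice was analysed. As the study's methods state, TopHat2 was run against an Ensembl mouse transcript set. The table deposited by the authors holds RPKM for 94480 transcripts, before any batch adjustment in the 27 columns described next as far as their values show. Of these, 90339 (95.6%) matched GENCODE M21 (GRCm38) and were summed per gene. In 27 libraries RPKM times length fell on whole reads (93.2 to 94.6% of low values within 0.06 of a read, where chance gives 12.0%), which gave an estimated 23796778 to 61636252 mapped reads. In the column of mouse 613 it was 14.0%, so its depth is unknown. Overlapping transcripts of a gene each carry shared reads in full, so sums grow with the number of transcripts.

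Tests were run with limma 3.58.1 in R 4.3.3 (lmFit, eBayes with trend, Benjamini-Hochberg adjustment over all genes) on quantile-normalized log2(RPKM + 0.1), for genes with a mean of at least 0.1 RPKM; changes of low genes are understated on this scale. The 20 sorted libraries were fitted in 8 groups of genotype by stage, with stage differences averaged over genotypes, and the 7 testes apart. The authors' batch adjustment (PEER) and PoissonSeq test were not run. Members are named throughout, with *Prm1* as a marker. From each partner list the 3 genes with the smallest adjusted p in a comparison are named, and the 10 genes most like the members' mean profile. Members and lists were chosen with earlier results of these data known. The comparison of spermatids with spermatogonia was added after the data were seen.

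Libraries of the same number are the same animal. Their residuals correlated with a median of 0.54 (22 pairs, -0.19 to 0.76), against -0.05 between mice (151 pairs). A random replicate block by mouse took a correlation of 0.416. Alternatives were another pseudocount (0.01 or 1), RPKM as deposited, other filters, missing transcripts as 0, 1 leading transcript, WT libraries alone, each mouse left out, the replicate block, libraries quantified together and, chosen after seeing the data, no spermatogonia library of mouse 544. Tables and figures used Python 3.11.15, pandas 2.3.3, numpy 2.4.6 and matplotlib 3.10.9.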

Additional observations from a re-analysis of the deposited data

Results flagged for a closer look

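Among the 5 KO whole testes, that of mouse 308 lay far above the other 4 in *Sycp1* (255 RPKM), *Sycp3* (1114 RPKM) and *Hormad1* (749 RPKM), and among the 4 KO primary spermatocyte libraries that of mouse 544 lay far above the rest in *Syce3* (107 RPKM). The gap to the nearest library exceeded Dixon's 95% limit in these 4 cases of 18 checked, where chance flags about 1 in 20 independent groups. The values checked are sums over transcripts, and in mouse 613 reads were split among transcripts. On the leading transcript *Syce3* was at 57.4 RPKM in mouse 544 and 45.7 RPKM in mouse 613. Mice 550 and 614 had 22.0 and 25.2 RPKM there. The 18 are the 9 genes in 2 sets of libraries, and 3 of the 4 cases are 1 testis in genes that move together, so the cases are not independent. The testis of mouse 308 had *Prm1* at 0.439 RPKM, where those of mice 269 and 286 had 0.850 and 1.16 RPKM. It was also the highest of the 7 testes in markers of Sertoli cells (417 RPKM against 72.3 to 257), spermatogonia (157 against 22.2 to 59.7), early meiotic prophase (73.9 against 9.0 to 43.7) and peritubular and stromal cells (69.8 against 5.25 to 25.0). Their part in these values was not tested.

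From primary to secondary spermatocytes the log2 difference of *Syce1* was below 0 within both WT mice (mean -0.23) and above 0 within both KO mice (mean 0.36) that gave these stages. In KO mouse 550 RPKM itself went from 295 to 230, so the sign in that mouse depends on the normalization. This difference between genotypes was not tested on these mice alone.

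The WT ovary was in no comparison. On the leading transcript, *Syce2* was read there at 8.52 RPKM and *Sycp3* at 4.64 RPKM, above the 3 reads that a count of 0 allows. Of the leading *Sycp3* transcript, 535 of 1139 bases are shared with *Chpt1* on the opposite strand, and as strand-aware counting is not stated, reads of both genes cannot be told apart there. *Sycp2* (0.232 RPKM), *Hormad1* (0.174 RPKM), *Tex12* (0.092 RPKM), *Syce1* (0.065 RPKM) and *Sycp1* (0.044 RPKM) were also above that limit. No read was recorded on the leading transcripts of *Syce3* and *Hormad2*, which allows up to 0.127 and 0.0976 RPKM on them. Summed over its transcripts, *Hormad2* was at 0.106 RPKM. These limits cover counting error only.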

How the results depend on the processing

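The 6 member differences that passed kept their direction in all 108 fits under an alternative and stayed past the threshold in 85 of them. Over all members and comparisons, 121 values changed sign under an alternative fit, none of them past the threshold as reported, and the cause was not tested. They are out of 1584 values, of which 153 have no sign (the genotype effect that differs between stages). The 1584 also hold the 45 values within libraries quantified together. Of those 45 values, 23 had the opposite sign and are not among the 121. Leaving out 1 mouse can leave 1 library in a group, which is then assumed to vary like the others. In whole testes no replicate block was fitted, as each mouse gave 1 library. Between spermatogonia and spermatids, where 4 members passed as reported, 6 were called with the mouse as a replicate block and 5 with 1 leading transcript. There were 3 with a pseudocount of 1 or 0.01 and with no filter on low values.

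The members called were 1 in WT libraries alone between spermatogonia and primary spermatocytes and 0 to 2 without 1 mouse (0 without mouse 648), and with RPKM as deposited 2 between spermatogonia and spermatids, and 1 to 4 without 1 mouse. From primary to secondary spermatocytes 1 member was called with the mouse as a replicate block, and 0 to 1 without 1 mouse. Counts of all genes between spermatogonia and primary spermatocytes were 1521 to 7281 without 1 mouse, and between spermatogonia and spermatids 4878 to 10685. From primary to secondary spermatocytes they were 674 with RPKM as deposited, 21 with 1 leading transcript, 3857 with the replicate block, 0 in WT libraries alone, 1343 without the spermatogonia library of mouse 544 and 0 to 1124 without 1 mouse. From secondary spermatocytes to spermatids they were 29, 91 and 17 with RPKM as deposited and pseudocounts of 1 and 0.01, 79 with no filter, 8 with a mean of at least 1 RPKM, 1120 with the replicate block, 19 without the library of mouse 544 and 0 to 52 without 1 mouse. For genotype, no filter on low values gave 37, 15, 11 and 29 genes in spermatogonia, primary and secondary spermatocytes and spermatids, and 28 for the difference between stages. A pseudocount of 1 gave 1, 2 and 1 in spermatogonia, primary spermatocytes and spermatids, and 0.01 gave 2, 1 and, in whole testes, 1. Without mouse 286 the KO spermatogonia are the library of mouse 544 alone, with its 10600 RPKM of spermatid markers. The part of the cells behind those markers in the spermatogonia count without mouse 286 was not tested. Without 1 mouse the counts were 0 to 1032 in spermatogonia (1032 without mouse 286), 0 to 1 in secondary spermatocytes, 0 to 2 in spermatids and 0 to 2 in whole testes.

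Log2 differences of members that changed sign were as follows. In primary spermatocytes minus spermatogonia, with 1 leading transcript *Hormad2* was 0.11 and *Sycp2* -0.67, with the mouse as a replicate block *Hormad2* was 0.07 and *Tex12* 0.34, without the spermatogonia library of mouse 544 *Sycp2* was -0.56. In secondary minus primary spermatocytes, with RPKM as deposited *Syce2* was 0.04, with a pseudocount of 1 *Syce2* was 0.00, with the mouse as a replicate block *Syce2* was 0.09, in wildtype libraries alone *Syce2* was 0.25, with 1 leading transcript *Syce1* was 0.10 and *Sycp2* 0.36. For genotype in spermatogonia, with RPKM as deposited *Syce2* was 0.29, *Hormad2* 0.07 and *Sycp2* 0.37, without the spermatogonia library of mouse 544 *Sycp3* was 0.20, *Hormad2* 1.01, *Sycp1* 0.27, *Hormad1* 0.49, *Tex12* 0.93, *Sycp2* 1.61 and *Syce3* -0.61, with 1 leading transcript *Hormad2* was 0.03 and *Sycp2* 0.20, with a pseudocount of 1 *Sycp2* was 0.00, with the mouse as a replicate block *Sycp2* was 0.03. For genotype in primary spermatocytes, with RPKM as deposited *Sycp1* was -0.09 and *Tex12* 0.09. For genotype in secondary spermatocytes, with 1 leading transcript *Hormad2* was 0.01, with RPKM as deposited *Syce1* was -0.18, with the mouse as a replicate block *Sycp1* was 0.05. For genotype in spermatids, with the mouse as a replicate block *Hormad2* was -0.28, with RPKM as deposited *Syce3* was 0.05. For genotype in whole testis, with RPKM as deposited *Sycp3* was 0.17, *Hormad2* 0.58, *Syce1* 0.55, *Sycp1* 0.07, *Hormad1* 0.38 and *Sycp2* 0.22, with 1 leading transcript *Hormad2* was 0.20 and *Syce1* 0.14. Without 1 mouse, the ranges of members that changed sign were these. In primary spermatocytes minus spermatogonia, *Sycp3* ran from -1.28 to 0.39, *Hormad2* from -1.17 to 0.72, *Hormad1* from -1.48 to 0.73, *Tex12* from -1.48 to 1.01, *Sycp2* from -0.85 to 1.36 and *Syce3* from -0.34 to 0.74. In secondary minus primary spermatocytes, *Syce2* ran from -0.47 to 0.45, *Syce1* from -0.15 to 0.09 and *Syce3* from -0.38 to 0.06. In spermatids minus secondary spermatocytes, *Hormad2* ran from -1.02 to 0.02, *Sycp1* from -0.14 to 0.82, *Tex12* from -2.09 to 0.43 and *Sycp2* from -1.48 to 0.03. In spermatids minus spermatogonia, *Syce3* ran from -0.06 to 1.30. Between genotypes in spermatogonia, *Syce2* ran from -0.33 to 0.01, *Sycp3* from -2.73 to 0.20, *Hormad2* from -1.94 to 1.57, *Sycp1* from -3.77 to 0.27, *Hormad1* from -3.13 to 0.48, *Tex12* from -3.82 to 0.92, *Sycp2* from -1.63 to 1.62 and *Syce3* from -1.07 to 1.42. Between genotypes in primary spermatocytes, *Sycp3* ran from -1.83 to 0.33, *Syce1* from -0.63 to 0.05, *Sycp1* from -1.04 to 1.21 and *Sycp2* from -1.83 to 0.04. Between genotypes in secondary spermatocytes, *Syce2* ran from -0.39 to 1.49, *Hormad2* from -0.61 to 0.29, *Syce1* from -0.36 to 0.41, *Sycp1* from -0.63 to 0.09 and *Tex12* from -1.20 to 0.11. Between genotypes in spermatids, *Syce2* ran from -2.01 to 1.18, *Sycp3* from -2.26 to 1.17, *Hormad2* from -0.80 to 1.05, *Syce1* from -0.52 to 0.21, *Sycp1* from -1.34 to 1.01, *Hormad1* from -2.53 to 1.45, *Tex12* from -3.51 to 1.49, *Sycp2* from -1.88 to 1.23 and *Syce3* from -0.51 to 0.27. Between genotypes in whole testis, *Syce2* ran from -0.81 to 0.87, *Sycp3* from -1.70 to 1.15, *Hormad2* from -0.67 to 0.50, *Syce1* from -0.60 to 0.57, *Sycp1* from -1.72 to 0.66, *Hormad1* from -1.48 to 1.12, *Tex12* from -0.31 to 1.94 and *Sycp2* from -1.32 to 0.70.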
